A study of Mus musculus with 9 samples.

Results

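The 10 genes described here act in acetylcholine signalling and were followed across motor neuron pools of the mouse: Chat, Slc18a3, Slc5a7 and Ache of the transmitter's own machinery, the muscarinic receptor genes Chrm1, Chrm2 and Chrm3, and the nicotinic subunit genes Chrna4, Chrna7 and Chrnb2. They were chosen by name, and their members are all probe sets whose annotation names 1 of these genes alone. The 10 genes had 15 such probe sets among 45037, and 9 of the 10 genes were measured, of 18193 genes in all. No probe set of the annotation used here named Chrm2, which was not analysed here. The motor neurons came from untreated wild-type C57BL/6J males at postnatal day 7 and were cut by laser from cresyl violet stained sections. The pools were the lumbar motor neurons of segment L5 (L5), midbrain oculomotor neurons (OMN) and neurons of the dorsolateral nucleus at level L6 (DL), with 3 arrays each, and the study set them side by side because motor pools differ in vulnerability in amyotrophic lateral sclerosis. Each of 3 animals gave about 200 neurons per pool, so a value is a mean over many cells, with whatever other cells were cut along. In such bulk samples fewer cells of a type and less RNA per cell cannot be told apart.

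Motor neurons use acetylcholine as their transmitter. Choline acetyltransferase, made from Chat, joins choline to acetyl-CoA, the vesicular transporter encoded by Slc18a3 fills vesicles with the product, acetylcholinesterase (Ache) splits it after release, and the high-affinity choline transporter (Slc5a7) takes choline back up. Motor neurons also receive acetylcholine: the large C-bouton synapses on spinal motor neurons act through muscarinic receptors of the M2 type, and axon collaterals and other inputs act through nicotinic receptors, which are ion channels of 5 subunits. Chrm1 and Chrm3 encode muscarinic receptors that couple to Gq, whereas Chrm2 and Chrm4 couple to Gi. Chrna4 and Chrnb2 subunits assemble together into a common brain nicotinic receptor, and Chrna7 forms receptors of its own kind with high calcium permeability.

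Intensities are on a linear scale, each array having the same trimmed mean. Noise was set at 18.3, the top reading over the 9 arrays of 27 bacterial control probe sets that received no spiked RNA. Between 67.0% and 71.5% of genes lay above it on an array. DL arrays 1 and 3 had the highest ratios of 3' to 5' Gapdh probe sets, 3.27 and 3.75, against 2.33 to 2.67 on the other 7 arrays. The same ratio for actin was 0.934 and 0.995 on these 2 arrays, 0.807 on DL array 2 and 0.900 to 0.934 on the L5 and OMN arrays, so it did not set DL array 1 apart. The log2 difference without DL arrays 1 and 3 is given beside each call that rests on DL, except for markers of cell types. In that fit, with 1 DL array, limma called 0 of 18193 genes for L5 minus DL, with 3007 at an unadjusted p under 0.05, and 128 for DL minus OMN against 550 with all arrays, so a call missed there says little of a single gene. Of 16 motor neuron markers outside the 10 genes, 14 were measured and none lay at or below noise on every array. Their summed intensity was 65817 to 69045 on L5 arrays, 45845 to 48549 on OMN arrays and 44998 to 52583 on DL arrays. Their median log2 difference was 0.55 for L5 minus OMN, 0.48 for L5 minus DL and 0.04 for DL minus OMN. The 6 genes Prph, Nefh, Nefm, Nefl, Calcb and Ret were far above noise on all 9 arrays. Mnx1, which marks spinal motor neurons, was above noise on 3 L5, 0 OMN and 3 DL arrays. Phox2a, a factor known from the formation of the oculomotor nucleus, was above noise on only 1 L5, 1 OMN and 0 DL arrays. Markers of other cells were present as well. The summed intensity of 9 oligodendrocyte markers lay between 16027 and 17122 on the L5 arrays, between 12664 and 14352 on those of OMN and between 22862 and 24956 on those of DL. For 9 astrocyte markers it was 22355 to 24273, 17832 to 18332 and 18259 to 20999.9 in the same order, and for 9 microglia markers it was 819 to 1069, 776 to 1018 and 436 to 1123.

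The muscarinic receptor gene Chrm1 was high in OMN and near noise in both spinal pools, and Chrm3 was higher in OMN than in DL. The 4 genes that make, store, recycle and split acetylcholine gave 0 calls in 3 comparisons, and only Chat between L5 and OMN had an unadjusted p under 0.05 among them. Differences were tested with limma on log2(intensity + 16), a scale that understates the change of dim genes, and a gene is said to be called where its Benjamini-Hochberg adjusted p over all 18193 genes was under 0.05. Between L5 and OMN, 1 of the 9 measured genes was called, Chrm1, which was lower in L5. Of all genes 2.17% were called in this comparison, and 1.22% of all genes were called lower in L5. Between DL and OMN, 2 genes were called, Chrm1 and Chrm3, each lower in DL, against 1.65% of all genes called lower and 3.02% called in either direction. Between L5 and DL limma called 0 of the 9, against 2.55% of all genes in either direction, and 2 of them, Chrna4 and Chrna7, had an unadjusted p under 0.05, as had 18.9% of all genes. Counting instead the genes whose 3 arrays of 1 pool all lay above or all below those of the other, 1 of the 9 was higher in L5 than in OMN (Chrna7) and 3 were lower (Chat, Chrm1, Chrm3), beside 14.6% and 12.8% of all genes and 27.4% in either direction. By the same count 2 were higher in L5 than in DL (Chrna4, Chrna7) and 0 lower, beside 13.8%, 9.67% and 23.5%. In DL 0 were higher than in OMN and 4 lower (Slc5a7, Chrm1, Chrm3, Chrna4), beside 9.51%, 11.6% and 21.1%. The median log2 difference of the 9 genes was -0.13 for L5 minus OMN, 0.25 for L5 minus DL and -0.35 for DL minus OMN, beside 0.015, 0.065 and -0.036 over all genes. The 3 comparisons share arrays, so the pools' own values are given for each gene.

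**Figure D1:**
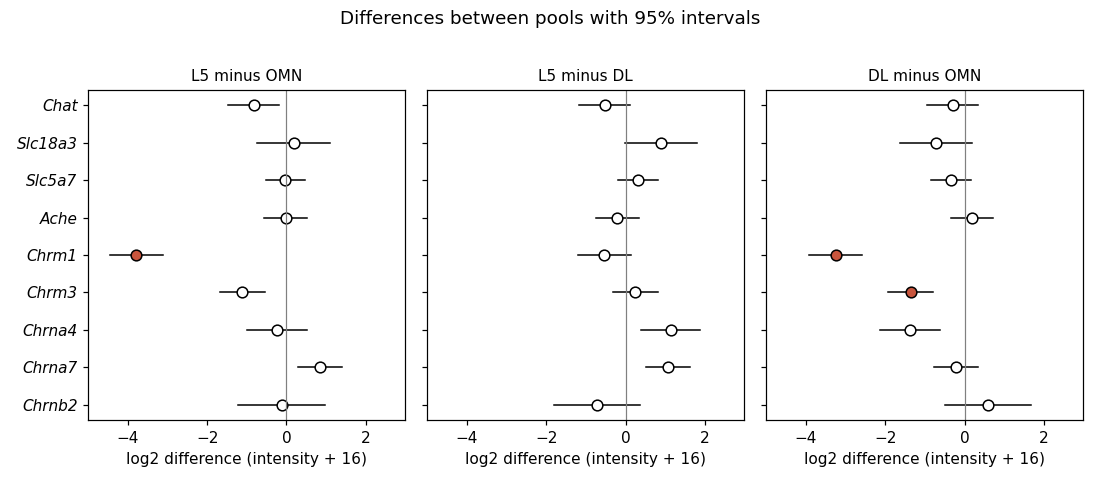
Fitted log2 differences of intensity + 16 (x axis) of the 9 measured genes (y axis) for each pair of pools, with bars for 95% intervals. Filled points have a limma adjusted p under 0.05: Chrm1 for L5 minus OMN at -3.78 and for DL minus OMN at -3.25, and Chrm3 for DL minus OMN at -1.36; the intervals of Slc18a3, Slc5a7 and Ache include 0 in every panel.

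The genes of the vesicular transporter and the choline transporter were far above noise on every array. Slc18a3 read 2294, 3574 and 2617 on L5 arrays 1 to 3, 2755, 1997 and 2682 on the OMN arrays and 1657, 2556 and 774 on the DL arrays. The 3 pools overlapped, and DL array 3 was the lowest of the 9. L5 minus DL was 0.89 ± 0.39 in log2 (SE of the fit, n = 3 arrays a pool), with a 95% interval from -0.02 to 1.80 and a limma adjusted p of 0.272. Without DL arrays 1 and 3 that difference was 0.15. Slc5a7 read 4979, 3827 and 3415 in L5, 4188, 4192 and 3942 in OMN and 2864, 3351 and 3475 in DL. Here the DL arrays lay below all OMN arrays, though by little, and L5 overlapped with both. The DL minus OMN difference was -0.35 ± 0.21 (95% interval -0.85 to 0.15, limma adjusted p = 0.498), and no overlap between these pools, in either direction, was seen for 21.1% of all genes.

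Ache, the enzyme that ends the signal, differed least. It read 590, 1068 and 824 in L5, 812, 813 and 822 in OMN and 720.0, 1310 and 853 in DL. The OMN arrays were nearly alike and lay inside the range of each spinal pool. L5 minus OMN was -0.02 ± 0.23 (95% interval -0.56 to 0.52), and the intervals against DL were -0.74 to 0.33 for L5 minus DL and -0.35 to 0.72 for DL minus OMN, so a 2-fold change lay outside all 3 intervals.

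Chat, whose enzyme defines cholinergic neurons, was dim with the only probe set that names it. It read 4.30, 1.20 and 12.8 in L5, 24.5, 20.5 and 22.0 in OMN and 16.7, 21.8 and 8.40 in DL. All L5 arrays were below the noise level of 18.3, all OMN arrays just above it, and 1 of 3 DL arrays above it. The OMN level was at least 1.22-fold that of L5, taking noise as the L5 level, and the L5 minus OMN difference was not called (-0.83 ± 0.27, limma adjusted p = 0.204). What part of the Chat transcript this probe set covers was not tested.

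**Figure D2:**
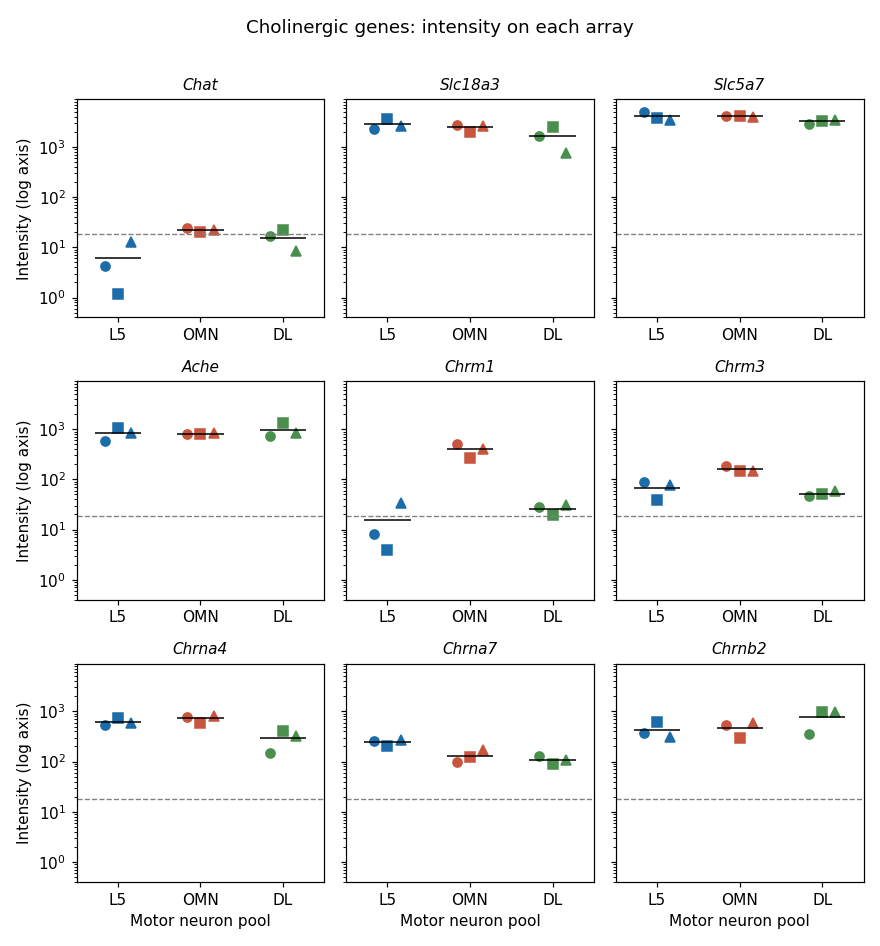
Intensity (y axis, log scale) on each array of the 3 pools (x axis) for the 9 measured genes, each shown by its brightest probe set on average. Circles, squares and triangles are arrays 1, 2 and 3, black lines are means and the dashed line is the noise level of 18.3; the 3 OMN arrays of Chrm1 stand at 271 to 507 and its 6 spinal arrays at 3.90 to 34.4.

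Chat and Slc18a3 share 1 locus in mammals, with the transporter gene placed inside the first intron of Chat. In RefSeq (GRCm38.p6) both start on the minus strand, 1059 bases apart. The 250 bases before each start, and those of the choline transporter gene, are shown 5' to 3' because these 3 genes serve 1 pathway and 2 of them share a locus. They lie at chr14:32465910-32466159 for Chat, chr14:32464851-32465100 for Slc18a3 and chr17:54299035-54299284 for Slc5a7, all on the minus strand. Capitals mark matches to a motif.
Chat: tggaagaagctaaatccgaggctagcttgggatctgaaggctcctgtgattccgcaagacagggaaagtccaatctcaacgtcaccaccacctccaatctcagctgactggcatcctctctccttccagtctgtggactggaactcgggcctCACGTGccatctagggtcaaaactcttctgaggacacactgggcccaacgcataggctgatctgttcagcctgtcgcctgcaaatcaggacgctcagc
Slc18a3: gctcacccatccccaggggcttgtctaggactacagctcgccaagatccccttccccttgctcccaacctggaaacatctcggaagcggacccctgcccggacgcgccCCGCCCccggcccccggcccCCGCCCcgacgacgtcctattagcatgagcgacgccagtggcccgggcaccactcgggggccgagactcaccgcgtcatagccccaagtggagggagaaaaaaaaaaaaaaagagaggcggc
Slc5a7: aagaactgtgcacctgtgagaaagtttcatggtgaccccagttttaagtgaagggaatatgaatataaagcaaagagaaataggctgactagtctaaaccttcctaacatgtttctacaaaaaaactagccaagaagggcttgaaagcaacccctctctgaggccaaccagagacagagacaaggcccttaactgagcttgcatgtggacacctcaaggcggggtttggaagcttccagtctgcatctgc
The letters searched on either strand were GGGCGG (GC box), GCGTGGGCG and GCGGGGGCG (forms of the Egr1 site), TGACGTCA (cAMP response element), TAATTA (homeodomain site) and CACGTG (E-box). Chat had 1 E-box, as had 6.02% of the 32851 windows of the same length in the table. Slc18a3 had 2 GC boxes, both on the opposite strand, and 32.7% of windows held at least 1. Slc5a7 had 0 matches. G and C made up 54.8%, 66.0% and 45.6% of these windows in the order shown, against a median of 52.4%. Matches describe these letters only.

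Chrm1, which encodes the M1 receptor, was the gene of this group that separated the pools most clearly. It read 507, 271 and 408 in OMN. In L5 it read 8.20, 3.90 and 34.4, of which 1 array was above noise, and in DL 28.7, 19.5 and 30.2, all slightly above noise. Every OMN array was thus far above every spinal array. Folds here are ratios of geometric means, with values under noise raised to it where a bound is given. OMN was at least 16.9-fold higher than L5 and 14.9-fold higher than DL. The log2 differences were -3.78 ± 0.29 for L5 minus OMN (limma adjusted p = 0.00155) and -3.25 ± 0.29 for DL minus OMN (adjusted p = 0.00235). L5 and DL overlapped (-0.53 ± 0.29, adjusted p = 0.370).

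The second Chrm1 probe set gave the same picture. It read 162, 182 and 148 in OMN, 2.00, 5.10 and 2.50 in L5 and 22.5, 7.80 and 2.60 in DL. All L5 arrays and 2 of 3 DL arrays were below noise, and OMN was at least 8.93-fold above L5 and at least 8.33-fold above DL. When all 45037 probe sets were fitted on their own, both Chrm1 probe sets were called in these comparisons (limma adjusted p between 0.00254 and 0.00427), where 1.03% of probe sets were called between L5 and OMN and 1.92% between DL and OMN. Across the 9 arrays the log2 values of the 2 probe sets had a Pearson r of 0.95. Without DL arrays 1 and 3, DL minus OMN was -2.98 (adjusted p = 0.0655), the only one of 22 alternatives without this call.

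Chrm3, the gene of the M3 receptor, was also highest in OMN but by less. It read 186, 145 and 147 in OMN, 88.4, 38.7 and 76.0 in L5 and 46.3, 51.0 and 58.6 in DL. The OMN arrays lay above all 6 spinal arrays, which overlapped with one another and were all above noise. OMN was 3.06-fold higher than DL (log2 -1.36 ± 0.25, limma adjusted p = 0.0333) and 2.48-fold higher than L5 (-1.11 ± 0.25, adjusted p = 0.0805, not called). The call against DL did not survive most alternatives: it held in 7 of 22, and was lost on leaving out any 1 DL or OMN array or L5 array 1 or 3 (adjusted p 0.0365 to 0.156 over the 9 arrays left out singly). The log2 difference itself stayed between -1.52 and -1.15 in these 9 fits, and was -1.04 without DL arrays 1 and 3. Calls over all genes also fell in these 9 fits, for DL minus OMN from 550 to between 186 and 370. For L5 minus OMN they fell from 394 to between 83 and 100 without 1 L5 or OMN array, and to between 318 and 375 without 1 DL array. For L5 minus DL they fell from 464 to between 55 and 95 without 1 L5 array, and to between 111 and 259 without 1 OMN or DL array. A call lost on leaving out 1 array, here or for the genes below, thus says little of a single gene.

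Some markers of other cells moved with the OMN-high muscarinic genes. Of 7 monoaminergic neuron markers, 3 were called higher in OMN than in L5 and 3 higher than in DL. Their summed intensity was 934 to 1026 in OMN, 379 to 576 in L5 and 320 to 1350 in DL, and Slc6a3 and Slc6a4, transporters that define dopamine and serotonin neurons, were at or below noise on every array. Of the 2 measured excitatory neuron markers Slc17a7 was at or below noise on every array, and Slc17a6, a vesicular glutamate transporter, read 1219, 1183 and 968 in OMN, 502, 479 and 389 in L5 and 285, 177 and 144 in DL. Of 4 measured inhibitory interneuron markers, Gad1 and Gad2 were called higher in OMN than in L5 but not higher in OMN than in DL. Slc6a5 and Slc32a1 went the other way, with L5 means of 551 and 963 against 22.6 and 475 in OMN. Of these 2, only Slc6a5 was called between L5 and OMN, and both were called higher in DL than in OMN. The part of these marker genes in the Chrm1 and Chrm3 differences was not tested. The genes whose pattern over the 9 arrays was most like that of Chrm1, among 8880 with a mean over 100, were Scd1 (Pearson r = 0.98), Col5a2 (r = 0.98) and Kcnd3 (r = 0.97). Col5a2, which encodes a collagen chain, averaged 312 ± 75.8 (SD, n = 3) in OMN, 5.47 ± 3.41 in L5 and 22.7 ± 3.34 in DL. Kcnd3, which encodes an A-type potassium channel, averaged 741 ± 257 in OMN, 122 ± 18.4 in L5 and 143 ± 11.0 in DL. Scd1, a fatty acid desaturase, differed far less, at 2377 ± 85.3, 1532 ± 171 and 1734 ± 21.4 in the same order. These correlations describe 9 arrays that fall into 3 pools.

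Among the nicotinic subunits Chrna7 was highest in L5. It read 258, 203 and 272 in L5, 96.9, 124 and 170 in OMN and 130, 88.2 and 106 in DL. All L5 arrays lay above all others, and OMN and DL overlapped. By geometric means L5 was 1.91-fold above OMN and 2.27-fold above DL. Neither difference was called: L5 minus OMN was 0.85 ± 0.23 (95% interval 0.30 to 1.40, limma adjusted p = 0.138) and L5 minus DL 1.07 ± 0.23 (0.52 to 1.62, adjusted p = 0.0671). The second Chrna7 probe set had a wider gap, at 255, 208 and 234 in L5, 75.8, 61.6 and 65.8 in OMN and 47.1, 93.5 and 31.7 in DL. There L5 was 3.43-fold above OMN and 4.46-fold above DL.

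The side of the threshold on which Chrna7 fell depended on how it was summarised. Fitted on its own, the second probe set was called for L5 minus DL (1.84 ± 0.30, limma adjusted p = 0.0393 over all probe sets) but not for L5 minus OMN (1.57 ± 0.30, adjusted p = 0.0680). With the mean of both probe sets the gene was called in both, with adjusted p values of 0.0266 against OMN and 0.0142 against DL. L5 minus DL was also called with no replicate block (adjusted p = 0.0367) and with a pseudocount of 64 (0.0404), and without DL arrays 1 and 3 it was 1.18. Of 22 alternatives, only 3 called L5 minus DL (limma adjusted p up to 0.211) and 1 called L5 minus OMN (up to 0.356). These counts take the brightest probe set where each was fitted on its own. Markers of Schwann cells and sensory neurons had a summed intensity of 1887 to 2239 on L5 arrays, 120 to 195 on OMN arrays and 731 to 1125 on DL arrays over 3 measured markers. Nearly all of it came from Pmp22, a myelin gene, with a mean of 2060 in L5, 135 in OMN and 875 in DL, and Scn10a, a sodium channel of sensory neurons, was at or below noise on every array. The median log2 difference of the 3 was 0.07 for L5 minus OMN and -0.27 for L5 minus DL. The 14 measured motor neuron markers had medians of 0.55 and 0.48 in these comparisons, though Isl1 among them was called lower in L5 in both. The part of either list in the Chrna7 values was not tested.

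The 250 bases before the RefSeq start of Chrna7 (chr7:63212527-63212776, minus strand, GRCm38.p6) are shown because its 2 probe sets moved together. Capitals mark a GC box, a GCGGGGGCG form of the Egr1 site and an E-box, in that order.
Chrna7: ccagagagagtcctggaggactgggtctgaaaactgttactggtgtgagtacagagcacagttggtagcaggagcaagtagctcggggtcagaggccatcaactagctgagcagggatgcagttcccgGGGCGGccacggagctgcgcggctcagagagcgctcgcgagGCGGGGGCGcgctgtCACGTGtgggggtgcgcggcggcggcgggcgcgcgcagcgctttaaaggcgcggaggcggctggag
The Egr1 form was present in 2.57% of all windows of this length, and G and C made up 67.2% of the bases. Chrm1 had no entry in the promoter table.

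Chrna4 was lower in DL than in the other pools with 2 of its 3 probe sets. The brightest read 532, 732 and 584 in L5, 781, 601 and 803 in OMN and 149, 405 and 317 in DL. All DL arrays lay below all L5 and OMN arrays, while L5 and OMN overlapped. L5 minus DL was 1.14 ± 0.32 (95% interval 0.39 to 1.89, limma adjusted p = 0.120) and DL minus OMN -1.37 ± 0.32 (-2.13 to -0.62, adjusted p = 0.0778), and neither was called. The second probe set read 227, 339 and 243 in L5, 401, 312 and 353 in OMN and 203, 92.0 and 137 in DL, again with DL below both. The third read 59.4, 125 and 175 in L5, 140, 189 and 138 in OMN and 124, 125 and 233 in DL, and its pools overlapped throughout. Its log2 values had a Pearson r of -0.05 with the brightest over the 9 arrays, against 0.61 between the first 2. Both differences of the brightest probe set were called with a trend and robust variances, with adjusted p values of 0.0382 for L5 minus DL and 0.0165 for DL minus OMN. This was the only 1 of 22 alternatives to call either. It called 1153 and 880 of all genes in these comparisons, against 464 and 550 in the main fit. DL array 1, the lowest, was 1 of the arrays with a high Gapdh ratio, and without DL arrays 1 and 3 the differences were 0.57 and -0.81.

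Chrnb2, whose subunit joins with that of Chrna4, gave no difference that its probe sets shared. The brightest read 374, 605 and 309 in L5, 536, 292 and 585 in OMN and 349, 964 and 983 in DL, with DL arrays 2 and 3 the highest of the 9. A second read 248, 167 and 179.8 in L5, 85.9, 181 and 239 in OMN and 57.1, 50.1 and 188 in DL, with DL arrays 1 and 2 the lowest. The third lay between 32.7 and 67.3 on all arrays. All pairs of pools overlapped with each probe set, the brightest and the second had a Pearson r of -0.22 over the arrays, and L5 minus DL was -0.73 ± 0.46 with the brightest and 1.09 ± 0.42 with the second, with limma adjusted p values of 0.456 among genes and 0.254 among probe sets.

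**Figure D3:**
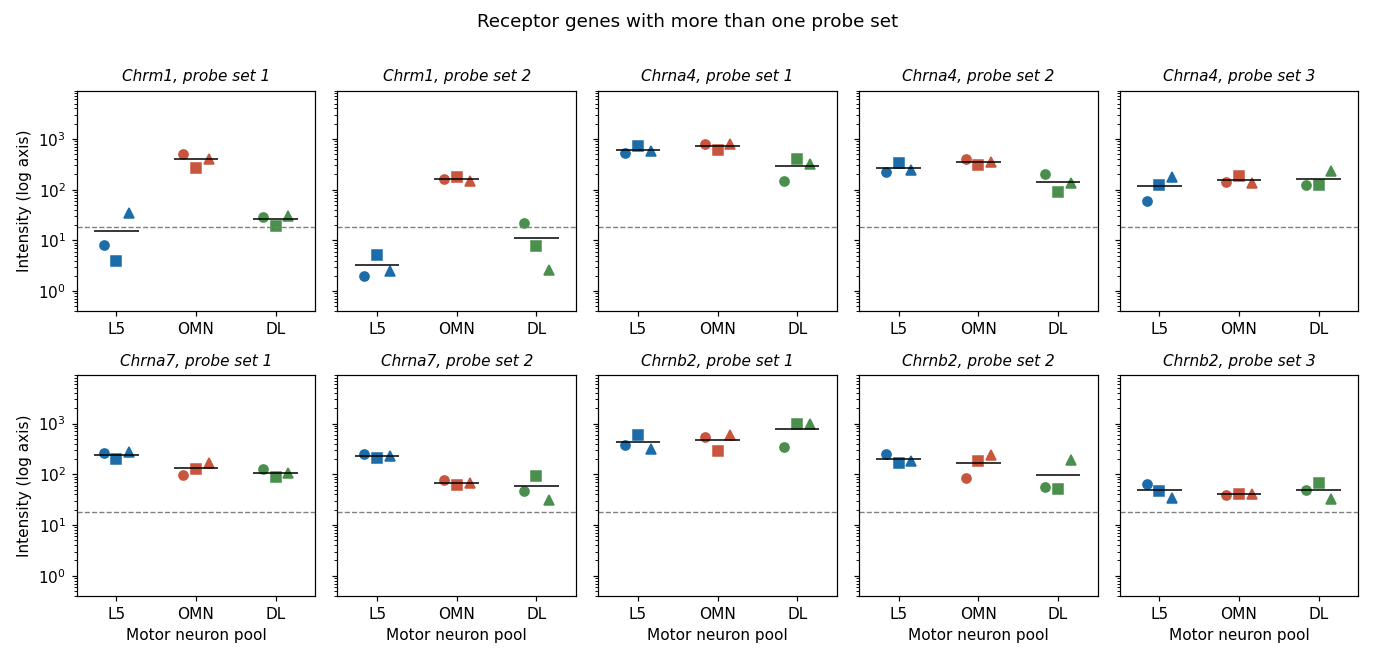
Intensity (y axis, log scale) by pool (x axis) for every probe set of the 4 receptor genes with more than 1, numbered from the highest mean down; symbols, lines and the dashed noise level of 18.3 have the same meaning as in the plot of the 9 genes. The 2 probe sets of Chrm1 and those of Chrna7 order the pools alike, whereas Chrna4 probe set 3 and the 3 Chrnb2 probe sets do not follow one another.

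The nicotinic genes Chrna3 and Chrnb4 were higher in DL than in both other pools, and Chrna5 was lower in OMN than in both. Of 15 further nicotinic and muscarinic genes, 13 were measured. Between DL and OMN 3 were called higher in DL and 0 lower, where 1.37% of all genes were called higher, and between L5 and DL 2 were called lower in L5 and 0 higher, where 1.28% were called lower. Between L5 and OMN 1 was called higher in L5, where 0.945% of all genes were. The genes called were Chrna3, Chrnb4 and Chrna5, which lie next to one another in the mouse genome in the order Chrna5, Chrna3, Chrnb4, and whose subunits are best known from autonomic ganglia. The median log2 differences over the 13 genes were -0.03 for L5 minus OMN, -0.10 for L5 minus DL and -0.01 for DL minus OMN, beside 0.015, 0.065 and -0.036 over all genes.

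Chrna3 read 797, 1012 and 1108 in DL, 114, 103 and 151 in L5 and 36.0, 70.8 and 97.4 in OMN. DL stood well apart and was 7.95-fold above L5 (log2 L5 minus DL -2.83 ± 0.23, limma adjusted p = 0.00435) and 15.3-fold above OMN (DL minus OMN 3.61 ± 0.23, adjusted p = 0.000661), with 2 of its 3 probe sets called in both cases. Leaving out any 1 array kept both calls, and without DL arrays 1 and 3 the log2 differences were -2.95 and 3.73, the latter called. Chrnb4 read 64.3, 51.0 and 198 in DL and 0.90 to 2.70 on the 6 other arrays, all below noise. It was at least 4.73-fold higher in DL than in L5 and than in OMN. The adjusted p was 0.0202 against L5, with both probe sets called, and 0.0133 against OMN, with 1 of 2 called. DL array 2 alone gave a log2 difference of -1.87 for L5 minus DL and 1.95 for DL minus OMN, smaller than the -2.51 and 2.60 of all 3. The call against L5 was lost without DL array 1 or any 1 L5 array (adjusted p up to 0.0980) and that against OMN without any 1 OMN array (up to 0.0753). Chrna5 read 52.7, 45.9 and 61.6 in DL and 38.0, 23.0 and 63.5 in L5, but 4.90, 4.60 and 7.80 in OMN, below noise. DL exceeded OMN at least 2.90-fold (log2 1.67, adjusted p = 0.00977, up to 0.0662 without OMN array 1 or 3; 1.80 without DL arrays 1 and 3) and L5 exceeded OMN at least 2.08-fold (adjusted p = 0.0284). The latter call was lost without DL array 1 or any 1 L5 or OMN array (up to 0.150). In both comparisons 1 of the 2 Chrna5 probe sets was called on its own, and the other gave 0.52 for DL minus OMN.

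The other 10 genes of that list were dim. Chrna1, Chrnb1, Chrnd, Chrne and Chrm4 did not exceed noise on any array, of which the first 4 encode subunits of the muscle receptor and Chrm4 the M4 receptor. Chrng exceeded it on 1 OMN array and Chrna6, Chrna2, Chrna9 and Chrnb3 on 1 to 4 arrays. Some markers of other cells were also highest in DL. Gfap, the intermediate filament gene of astrocytes, read 1074, 2333 and 1243 in DL, 392, 351 and 233 in L5 and 12.2, 19.1 and 22.7 in OMN, and was called in all 3 comparisons, though the sum over 9 astrocyte markers was not highest in DL. The summed intensity of 4 measured inhibitory interneuron markers was 5017 to 5875.0 in DL, against 1628 to 2232 for L5 and 1852 to 2674 for OMN, and that of the oligodendrocyte markers was also highest in DL. Their part in the DL values was not tested.

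Proteins of the Ly6 family bind nicotinic receptors and tune their assembly or response, and 3 of their genes, Lypd1, Lypd6 and Lypd6b, were called in at least 1 comparison. Of 12 measured genes for receptor assembly and Ly6 modulators, 2 were called higher in L5 than in OMN, 2 higher in L5 than in DL and 2 lower in DL than in OMN, with 0 calls in the opposite direction in each, where 0.945%, 1.28% and 1.65% of all genes were called in these directions. The list's median log2 differences were 0.13, 0.43 and -0.10 in that order, beside 0.015, 0.065 and -0.036 over all genes. Lypd6 read 1180, 1013 and 1037 in L5, 295, 453 and 406 in OMN and 181, 160 and 147 in DL, with 3 levels that did not overlap. L5 was 6.62-fold above DL (limma adjusted p = 0.00493, all 3 probe sets called), with a log2 difference of 2.61, and 2.71 without DL arrays 1 and 3. It was 2.84-fold above OMN (adjusted p = 0.0254, 1 of 3 probe sets called), which was lost without any 1 L5 or OMN array (up to 0.138). The DL minus OMN call (-1.15, adjusted p = 0.0453, 0 of 3 probe sets called on their own) was lost without any 1 of the 9 arrays, with adjusted p between 0.0539 and 0.191, and was -1.25 without DL arrays 1 and 3.

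Lypd1 had another order. It read 5228, 4512 and 4646 in OMN, 2193, 2345 and 1861 in L5 and 348, 749 and 670 in DL. OMN was 8.56-fold above DL (log2 DL minus OMN -3.06 ± 0.29, limma adjusted p = 0.00288), a call kept in all 22 alternatives, with -2.68 without DL arrays 1 and 3. L5 was 3.80-fold above DL (log2 1.89, adjusted p = 0.0234; 1.51 without DL arrays 1 and 3), which was lost without DL array 1, OMN array 3 or any 1 L5 array (up to 0.120). In both comparisons 1 of the 2 Lypd1 probe sets was called on its own. Lypd6b averaged 1664 ± 143 (SD, n = 3) in L5, 634 ± 83.4 in OMN and 820 ± 244 in DL. It was called between L5 and OMN (limma adjusted p = 0.0384), and this was lost without DL array 3 or any 1 L5 or OMN array (up to 0.180). Its only probe set was not called when all probe sets were fitted on their own.

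Of 19 measured effectors of muscarinic receptors, L5 minus OMN had 1 call in each direction, L5 minus DL had 1 lower call and DL minus OMN 1 higher call. Of all genes, 0.945% and 1.22% were called higher and lower for L5 minus OMN, 1.28% lower for L5 minus DL and 1.37% higher for DL minus OMN. Kcnj5, which encodes a potassium channel subunit opened by G proteins, read 193, 246 and 247 in OMN, 304, 268 and 110 in DL and 0.60, 14.0 and 0.90 in L5. All L5 arrays were below noise, and the gene was at least 12.4-fold brighter in OMN (limma adjusted p = 0.00375), while DL exceeded L5 at least 11.3-fold (adjusted p = 0.00594). The Kcnj5 call against OMN held in all 22 alternatives. The call against DL was lost in 2, a pseudocount of 1 and the fit without DL arrays 1 and 3, where the log2 difference was -3.47, as with all arrays, and 1 of the 2 Kcnj5 probe sets carried these calls. Rgs4, which speeds the shut-off of Gq and Gi signals, read 656, 663 and 647 in OMN, 2329, 1807 and 1676 in L5 and 1570, 1748 and 1601 in DL. It was 2.93-fold higher in L5 than in OMN (adjusted p = 0.0122) and 2.50-fold higher in DL than in OMN (log2 1.30, adjusted p = 0.0168; 1.43 without DL arrays 1 and 3), with 2 of its 3 probe sets called in each. The first call was lost without any 1 L5 or OMN array (up to 0.0819) and the second without any 1 OMN array or DL array 2 or 3 (up to 0.0969).

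Of 10 measured genes listed for the C-bouton synapse, 1 was called in each comparison. Of all genes, 2.17% were called for L5 minus OMN, 2.55% for L5 minus DL and 3.02% for DL minus OMN. Whether the product of each listed gene sits at this synapse was not tested. The genes called, Kcnn1 and Kcnn2, encode small-conductance calcium-activated potassium channels. Kcnn1 averaged 665 ± 14.7 in OMN (SD, n = 3), 200.0 ± 15.8 in L5 and 232 ± 108 in DL, and was lower in L5 and in DL than in OMN (limma adjusted p = 0.0400 and 0.0395). DL minus OMN was -1.57, and -2.35 without DL arrays 1 and 3. Leaving out 1 array lost the former in 7 of 9 cases, all but DL arrays 2 and 3, and the latter in 8 of 9, all but DL array 3, with adjusted p up to 0.187 and 0.166. Fitted on their own, 0 of the 2 Kcnn1 probe sets were called in these 2 comparisons. Kcnn2 averaged 488 ± 17.5 in L5, 327 ± 63.4 in OMN and 184 ± 72.4 in DL. It was higher in L5 than in DL (log2 1.41, limma adjusted p = 0.0415, and log2 1.22 without DL arrays 1 and 3). That call was lost without any 1 of the 9 arrays (0.0642 to 0.139). The only Kcnn2 probe set was not called when all probe sets were fitted on their own.

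Among genes of choline supply and breakdown, 1 was called. Of 17 measured genes, limma called 0 between L5 and OMN and 0 between L5 and DL, with 6 and 3 at an unadjusted p under 0.05, as had 15.9% and 18.9% of all genes. Between DL and OMN 1 was called, higher in DL, against 1.37% of all genes. That gene was Bche, which encodes butyrylcholinesterase, a second enzyme that splits acetylcholine. It read 1927, 863 and 1028 in DL, 522, 130 and 111 in L5 and 60.5, 167 and 56.2 in OMN. All DL arrays lay above all L5 arrays, 6.11-fold by geometric means, but this difference was not called (limma adjusted p = 0.0668). DL was 14.4-fold above OMN (log2 3.60 ± 0.54, limma adjusted p = 0.0173), with all 3 probe sets called. The call was lost without OMN array 3, DL array 1 or DL array 3 (up to 0.0901) and the log2 difference was 2.98 without DL arrays 1 and 3. Of 7 genes listed for the neuromuscular junction, limma called 0 in each of the 3 comparisons, with 3, 2 and 1 at an unadjusted p under 0.05 for L5 minus OMN, L5 minus DL and DL minus OMN, beside 2901, 3436 and 2911 of all 18193 genes.

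**Figure D4:**
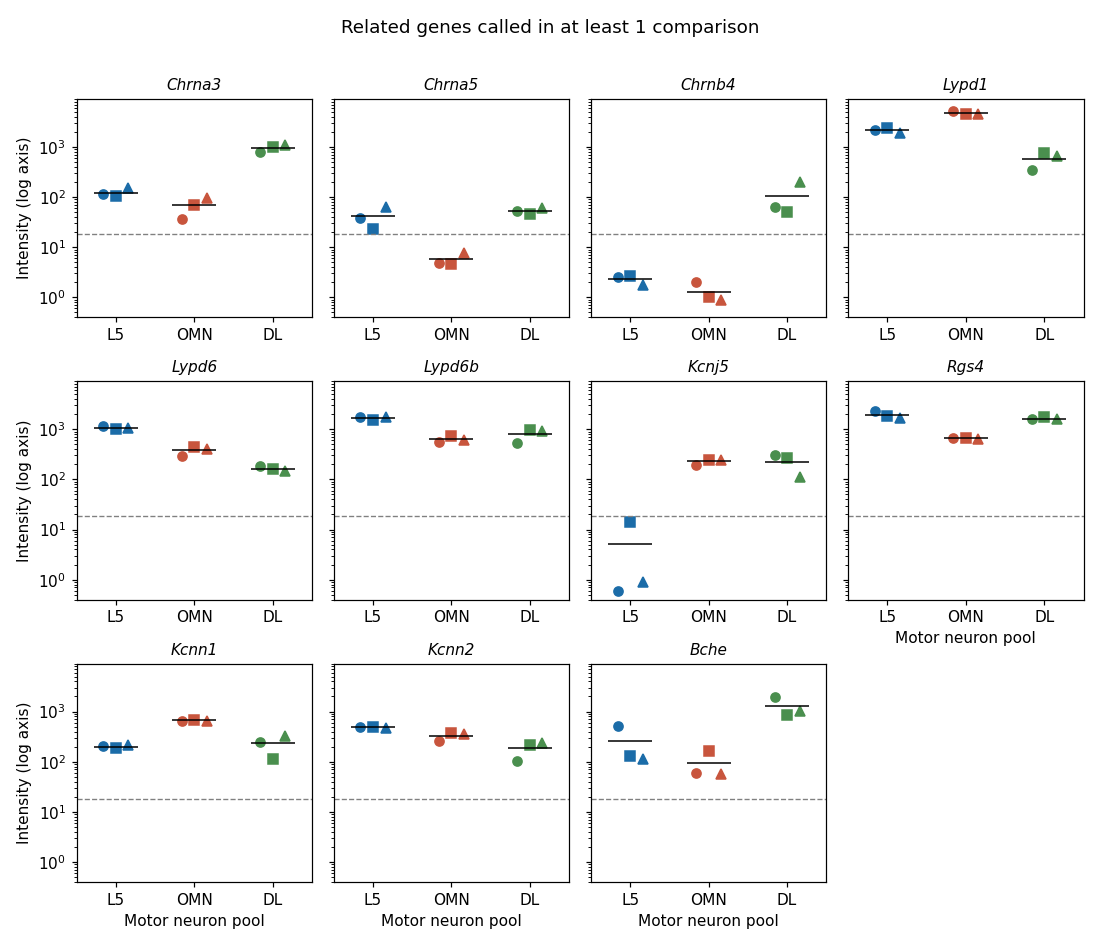
Intensity (y axis, log scale) by pool (x axis) for the 11 related genes outside the 10 that were called in at least 1 comparison; symbols, lines and the dashed noise level of 18.3 are those of the plot of the 9 genes. Chrna3 and Chrnb4 stand highest in DL, Lypd6 and Lypd6b in L5, Lypd1 and Kcnn1 in OMN, and the 3 L5 arrays of Kcnj5 lie below noise.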

How the data were processed

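Per the labels' protocols, no less than 1.5 ng of RNA went into a whole-transcriptome amplification per sample, and the biotinylated product was read on Affymetrix Mouse Genome 430 2.0 arrays. The authors deposited 1 table of linear intensity values, 1 for each of 45101 probe sets, all scaled to a mean of 250.0 that leaves out the top and bottom 2% of an array; the software and genome build are not given in the sources used here. A scaled array carries no information on total RNA per cell. Values were used as deposited and 64 control probe sets were left out. Of the other 45037, 34945 named 1 gene, 932 several and 9160 none in the platform annotation. IDs of 34741 matched the RefSeq gene table. The probe set of greatest mean intensity stood for its gene.

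All 9 arrays were fitted with limma 3.58.1 in R 4.3.3 on log2(intensity + 16), with the pool as factor and the replicate number as a block, since each animal gave all 3 pools, though no label ties numbers to animals. The spread of a gene was taken as common to all pools. Over 7123 genes with a mean over 200, the median SD in log2 was 0.204 in L5, 0.171 in OMN and 0.295 in DL. The SEs of comparisons with DL thus rest in part on pools with less spread. With only the 2 pools compared, calls over all genes went from 464 to 46 for L5 minus DL. For DL minus OMN they went from 550 to 120, and for L5 minus OMN from 394 to 399. The part of spread in this was not tested. Benjamini-Hochberg adjustment of p-values ran over 18193 genes. The script was tested on simulated arrays. Where a pool's mean was at or under 18.3, its values below that were raised to it and a fold is given as a lower bound. The number of arrays limits the precision. Named outside the 10 genes were up to 4 called genes per list and comparison, and the 3 genes most like any member called in 2 comparisons. The members and lists were chosen with earlier results of these data known. Promoter sequences are those of RefSeq, GRCm38.p6, which held 9 of the 10 genes. The noise level was chosen after values were seen. Alternatives changed the probe set summary, pseudocount, filter on dim genes, normalization, replicate block, variance model, array weights and the arrays fitted.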

Additional observations from a re-analysis of the deposited data

How the results depend on the processing

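The 27 differences (9 genes, 3 comparisons) were recomputed under 22 alternatives, 2 of them added after seeing the data (the Gapdh ratio as a covariate, and DL arrays 1 and 3 left out together, where the lone DL array is assumed to vary like the other pools' arrays). Of 594 values, 550 kept direction and side of the threshold, 16 lost a call, 8 gained one and 20 turned sign, none of the last from a called difference. The cause of these shifts was not tested.

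For L5 minus OMN the count of 1 called gene became 2 with the mean of all probe sets, a pseudocount of 64 and array weights. Over all genes these settings called 478, 602 and 676, against 394 in the main fit. For L5 minus DL the count of 0 became 1 with the mean of all probe sets, a pseudocount of 64, no replicate block, a trend and robust variances, and every probe set on its own. In that order these settings called 536, 814, 806 and 1153 of all genes, against 464, and 616 of 45037 probe sets. For DL minus OMN the count of 2 became 1 with a pseudocount of 1, quantile normalization, arrays centred on their medians, only the 2 pools compared, and the Gapdh ratio as a covariate. In that order these settings called 200, 509, 555, 120 and 279 of all genes, against 550. The count was 1 to 2 on leaving out single arrays, where 186 to 370 of all genes were called, and lower in the fit with 1 DL array.

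Signs turned as follows. With the mean of all probe sets Chrnb2 was 0.12 for L5 minus OMN and 0.11 for L5 minus DL. With arrays centred on their medians, which moved the median of all genes from -0.036 to 0.11 for DL minus OMN, Slc5a7 was 0.038 and Ache 0.047 for L5 minus OMN. Without DL arrays 1 and 3, Chrm3 was -0.071 for L5 minus DL, and Chat was 0.18 and Slc18a3 0.025 for DL minus OMN. With the Gapdh ratio as a covariate the latter 2 were 0.13 and 0.014. Centring also moved all higher and lower calls from 249 and 301 to 337 and 218 for DL minus OMN and from 232 and 232 to 197 and 300 for L5 minus DL. Leaving out single arrays, L5 minus OMN ranged from -0.24 to 0.18 for Ache, -0.22 to 0.10 for Slc5a7, -0.68 to 0.29 for Chrnb2, -0.57 to 0.064 for Chrna4 and -0.25 to 0.50 for Slc18a3, and DL minus OMN from -0.038 to 0.38 for Ache. Of 20 calls in related genes, 3 held in all alternatives: Chrna3 and Lypd1 for DL minus OMN and Kcnj5 for L5 minus OMN.

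As to the pairing, deviations of arrays with the same number had correlations of -0.071 to 0.059 between pools, with 0 of 9 above 0.1. With no replicate block, calls over all genes rose from 394 to 579 for L5 minus OMN, 464 to 806 for L5 minus DL and 550 to 716 for DL minus OMN. Among the 10 genes only Chrna7 for L5 minus DL changed side. Genes near noise, such as Chat, have no reliable fold.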
